A study of Mus musculus with 6 samples.

Results

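Timp1, the other tissue inhibitors of metalloproteinases (Timp2, Timp3 and Timp4), the membrane-anchored inhibitor Reck and 4 matrix metalloproteinases (Mmp2, Mmp9, Mmp11 and Mmp14) were followed in sorted mouse Sertoli cells. The set was 9 genes of the 19057 named on the array, taken as every probe whose annotated gene symbol was one of the 9. They had 14 of the 45281 probes. Timp1 was selected on its difference between the knockout and Control arrays, and the other genes were chosen by family beside it, with results of the same arrays known. Differences between the groups are therefore a description of the members. Where a member is said to lie past a threshold or not, that gives its place among all probes and supports nothing.

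Timp1 was far higher in the knockout cells. Its 2 probes measured 64.9-fold and 68.0-fold the Control mean, which was at low intensity. No other member came near that size: the 11 other tested probes lay between -1.25 and 1.55 on the log2 scale. Mmp9 was higher, and Reck and Mmp11 were lower, on every knockout array than on any Control array, without passing the threshold over all probes. Timp2, Timp3, Mmp2 and Mmp14 overlapped between the groups, and Timp4 was detected on 0 of the 6 arrays.

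RNA was hybridised to 6 Illumina bead arrays, 3 in each group, from Sertoli cells labelled with Sox9-GFP and sorted by fluorescence at 6 weeks of age. Sertoli cells are the somatic cells of the seminiferous tubule that nurse the germ cells. The knockout group (cKO) had the genotype Rb1 flox/-; Amh-Cre +, and the Control group had Rb1 flox/- without Cre, both on a C57B6J/129SvEv background. The comparison asks how loss of Rb1, the retinoblastoma gene, alters transcript levels in these cells. Both groups carry 1 null Rb1 allele, so the Control cells are not wild type. The Amh promoter drives Cre in Sertoli cells, and effects of Cre itself and of Rb1 loss cannot be told apart here. The labels do not tell whether replicate arrays hold separate animals or cultures, and p-values therefore reflect only how these samples vary, possibly for technical reasons.

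Matrix metalloproteinases are zinc enzymes that cut collagens, laminins and other proteins outside the cell. TIMPs bind them and block the active site, and Timp1 also has roles as a secreted signal that do not need protease inhibition. In the testis, Sertoli cells and peritubular cells build the basement membrane of the tubule together, and germ cells cross the blood-testis barrier while proteases and their inhibitors reshape the junctions.

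The region upstream of the start is shown for Timp1, the member with the large difference, and for Reck, the inhibitor that was lower on every cKO array, so that a member from each direction can be read. The sequences are RefSeq promoter windows of the GRCm38.p6 assembly and give the 250 bases before the annotated start, 5′ to 3′ on the strand of the gene. That of Timp1 is chrX:20869916-20870165 on the + strand and that of Reck is chr4:43875280-43875529 on the + strand. Capitals mark the core of ETS factor sites, GGAA, on either strand.
Timp1: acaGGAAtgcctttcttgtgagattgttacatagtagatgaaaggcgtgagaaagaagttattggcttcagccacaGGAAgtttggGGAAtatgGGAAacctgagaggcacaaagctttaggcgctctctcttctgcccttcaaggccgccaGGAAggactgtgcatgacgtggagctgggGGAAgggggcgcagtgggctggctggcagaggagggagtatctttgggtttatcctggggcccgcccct
Reck: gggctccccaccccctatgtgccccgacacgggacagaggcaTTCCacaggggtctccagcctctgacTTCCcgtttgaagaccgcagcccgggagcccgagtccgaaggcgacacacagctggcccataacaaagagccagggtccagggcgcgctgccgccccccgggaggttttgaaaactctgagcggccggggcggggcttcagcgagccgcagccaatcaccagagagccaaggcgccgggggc
The Timp1 stretch has 54.4% G and C and the Reck stretch 68.4%. Windows of 300 bases, which add 50 bases after the start, were searched on both strands for 7 of the 9 members; Mmp2 and Mmp9 were not analysed in this way. The letters GGAA were found 7 times in the Timp1 window, 2 times in that of Timp2, 3 times in that of Timp3, 4 times in that of Timp4, 2 times in that of Reck, 5 times in that of Mmp14 and 0 times in that of Mmp11. They are common letters, present in 96.0% of all 32851 windows. In Timp1, 6 of the 7 began upstream, at positions -247, -174, -164, -156, -98 and -69 counted from the start, and all of these were on the gene's own strand.

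Mouse Timp1 is known for an AP-1 site with the unusual letters TGAGTAA. These letters were in the Timp1 window at positions 27 to 33 after the start, on the gene's strand, in none of the other 6 member windows, and in 2.68% of all windows. This motif was added after the sequence had been seen. The usual AP-1 letters TGANTCA (7.81% of all windows), the STAT letters TTCNNNGAA (8.30%), the TATA letters TATAAA (13.6%) and the E2F letters TTTGGCGC, TTTCCCGC, TTTGCCGC or TTTCGCGC (2.26%) were in 0 of the 7 member windows. A match is a run of letters and not a measured binding site, and the absence of one covers this window only.

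Between 43.0% and 53.5% of probes were detected per array, and the median number of beads per probe was 43 to 44. The arrays of cKO replicate 1 and Control replicate 3 stood apart, and had the lowest and the highest share of probes detected, in that order. Along the leading axis of variation, 58.9% of the total, their scores were -113.9 and 110.2, and the scores of the others ran from -34.27 to 31.36. Values without these 2 arrays are given for each tested member and for the named genes of the related lists where they change a sign, lose a call or move a value by over 1.5 times. Rb1 itself was lower on all cKO arrays by both probes, at -0.98 ± 0.34 and -1.22 ± 0.32 (SE), without passing the threshold; the position of either probe against the deleted region was not determined. Of 17 Sertoli cell markers on the array, Inhba was the 1 detected on no array. The 15 tested Sertoli markers were all negative (median -0.43, 0 past the threshold in limma). The summed normalised intensity of the 17 markers overlapped, at 60944 to 75200 on the cKO arrays and 73169 to 85873 on the Control arrays. In bulk RNA, fewer cells of a type and less RNA per cell cannot be told apart.

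Intensities were normalised with neqc and are given on the log2 scale, and a difference is the cKO mean minus the Control mean. Two-sided limma tests ran over the 21805 probes that were detected on 3 or more of the 6 arrays, with Benjamini-Hochberg adjustment at 0.05. That threshold was passed by 31 probes with higher values in cKO, 0.142% of those tested, and by 0 with lower values, where 383 had an unadjusted p under 0.05. Of the 13 tested member probes, 2 lay past it, both of Timp1, whose selection on this difference had fixed that. All cKO arrays lay above all Control arrays for 3 member probes (both Timp1 probes and Mmp9), against 8.04% of all tested probes. They lay below them for 3 (both Reck probes and Mmp11), against 4.01%. The members were chosen with this contrast in view, so nothing is read from any of these counts or shares.

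**Figure D1:**
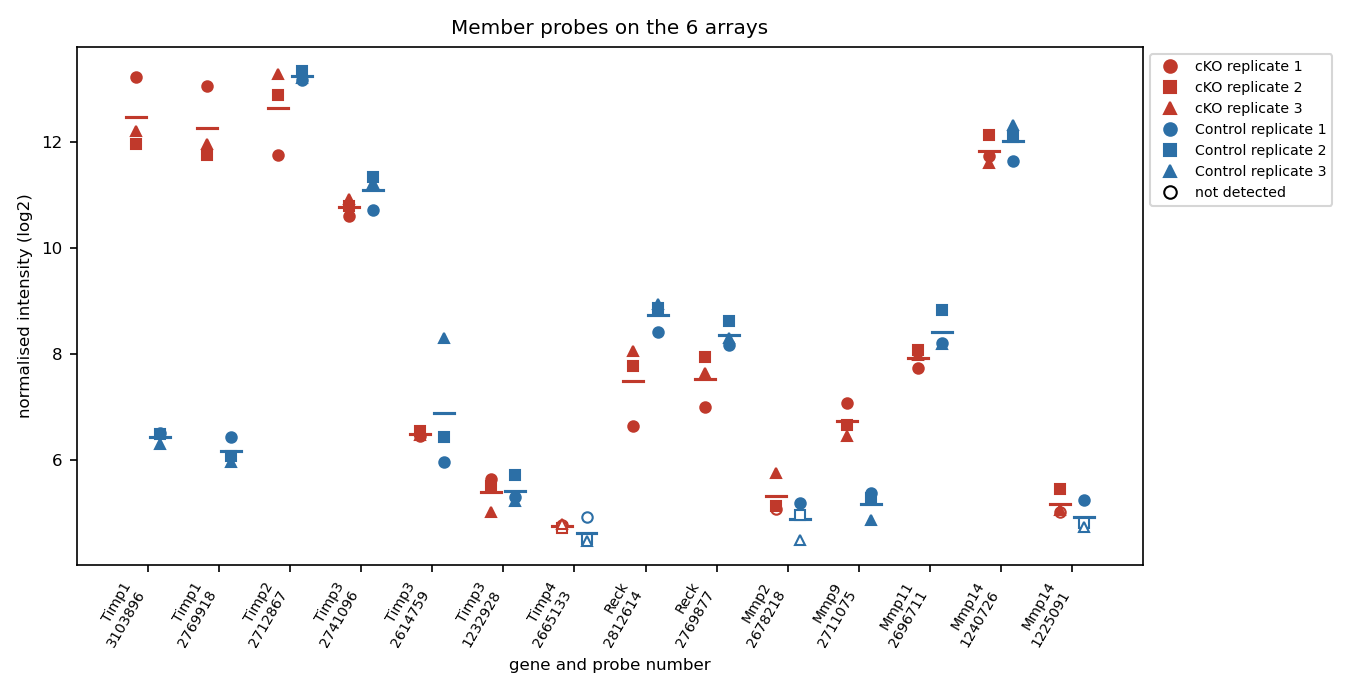
Normalised log2 intensity of the 14 member probes on each array, with cKO in red and Control in blue; marker shapes are replicates, open markers are arrays on which the probe was not detected, and bars are group means. The 2 Timp1 probes have all cKO arrays between 11.76 and 13.23 and all Control arrays between 5.97 and 6.52, while the other probes differ by less.

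Timp1 inhibits most secreted metalloproteinases and binds the proform of Mmp9. Its brighter probe, ILMN_3103896, measured 13.23, 11.96 and 12.21 for cKO replicates 1 to 3, against 6.52, 6.51 and 6.31 in the Control group. Every cKO array was above every Control array, cKO replicate 1 was the highest, and the Control arrays lay close together. The means were 12.47 ± 0.67 (SD, n = 3) and 6.45 ± 0.12 (SD, n = 3), a difference of 6.02 ± 0.37 (SE). The other probe, ILMN_2769918, measured 13.06, 11.76 and 11.96 on the cKO arrays and 6.45, 6.09 and 5.97 on the Control arrays. It showed the same order among the cKO arrays, and its difference was 6.09 ± 0.39 (SE), with means of 12.26 ± 0.70 and 6.17 ± 0.25 (SD, n = 3). By this difference Timp1 ranked 1 of 12277 tested genes.

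Timp1 was detected on all 6 arrays, so its Control level was measured rather than bounded. Before normalisation, probe ILMN_3103896 had bead means of 11467, 4514 and 4327 for cKO replicates 1 to 3, against 113, 101 and 139 in the Control group. The ratio of the group means was 57.5 before and 64.9-fold after normalisation, the latter from log2 means. The Control intensities are low on this array, and the background step moved the size of the difference. It was 6.02 in the main fit, 5.38 with an offset of 50 and 5.42 with no background correction. The standard error of the bead mean was 1.96% to 2.77% of the intensity on the cKO arrays and 3.40% to 6.28% on the Control arrays. That error covers the beads of an array only and not the spread between samples.

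**Figure D2:**
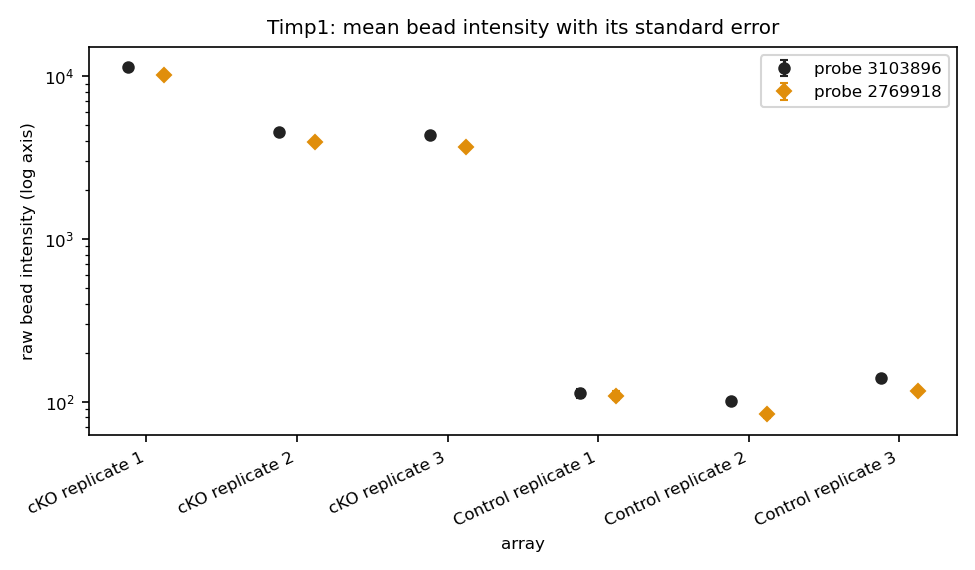
Raw mean bead intensity of the 2 Timp1 probes on each array, on a log axis, with the standard error over beads. Both probes give 10205 or more on cKO replicate 1, between 3674 and 4514 on the other cKO arrays and between 83.3 and 139 on the Control arrays.

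Leaving out cKO replicate 1 and Control replicate 3, Timp1 differed by 5.57 ± 0.29 (SE), and by 5.59 on the other probe. The difference was positive in all 15 alternatives run, between 5.38 with an offset of 50 in the background correction and 6.27 without cKO replicate 2, which is 41.6-fold to 77.3-fold. Where Timp1 stood against the threshold follows from its selection and is no support for the difference. That place was lost without Control replicate 1, 2 or 3, without the filter on detection and with the replicate number as a block.

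Timp2, an inhibitor that with Mmp14 also takes part in activating the Mmp2 proform, measured 11.77, 12.90 and 13.28 on the cKO arrays and 13.18, 13.35 and 13.21 on the Control arrays. The groups overlapped, since cKO replicate 3 lay above 2 Control arrays and cKO replicate 1 was far below the rest. The difference was -0.60 ± 0.41 (SE), and it was -0.16 without cKO replicate 1 and -0.18 without the 2 arrays that stood apart.

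Timp3, which binds to the matrix and also inhibits ADAM proteases, had 3 probes. The brightest, ILMN_2741096, measured 10.61, 10.79 and 10.93 on the cKO arrays and 10.72, 11.34 and 11.24 on the Control arrays, a difference of -0.32 ± 0.28 (SE). Control replicate 1 lay among the cKO arrays, and the difference was -0.17 without the 2 arrays that stood apart. Probe ILMN_2614759 differed by -0.40 ± 0.58 (SE), and 1 array decided it: Control replicate 3 measured 8.31, where the other 5 arrays lay between 5.96 and 6.56. Without cKO replicate 1 and Control replicate 3 its difference was 0.32, with the sign turned. Probe ILMN_1232928 differed by -0.03 ± 0.29 (SE), and by -0.24 without those 2 arrays. No Timp3 probe separated the groups.

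Timp4, the remaining inhibitor of the family, was not well above background on any array, with normalised values of 4.47 to 4.93. It was not tested, and no fold is given.

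Reck, a membrane-anchored glycoprotein that restrains Mmp2, Mmp9 and Mmp14, was lower on the cKO arrays by both of its probes. Probe ILMN_2812614 measured 6.65, 7.78 and 8.06 on the cKO arrays and 8.43, 8.87 and 8.94 on the Control arrays. No array overlapped, and cKO replicate 1 was the lowest. The means were 7.50 ± 0.75 and 8.75 ± 0.28 (SD, n = 3), and the difference was -1.25 ± 0.41 (SE), so the cKO mean was 0.421 of the Control mean. Probe ILMN_2769877 measured 7.00, 7.95 and 7.66 against 8.18, 8.63 and 8.31. Its groups did not overlap either, and its difference was -0.84 ± 0.32 (SE). Without the 2 arrays that stood apart, the differences of the 2 probes were -0.73 and -0.60. By its brighter probe Reck ranked 227 from the lowest of 12277 genes.

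Mmp9, the gelatinase that cuts denatured collagen and type IV collagen, measured 7.09, 6.66 and 6.46 on the cKO arrays and 5.40, 5.29 and 4.87 on the Control arrays. All cKO arrays were higher, and the probe was detected on every array. The means were 6.74 ± 0.32 and 5.19 ± 0.28 (SD, n = 3), a difference of 1.55 ± 0.29 (SE) or 2.93-fold, and Mmp9 ranked 215 from the highest. Its raw intensities were 141, 135 and 125 on the cKO arrays and 69.1, 61.7 and 61.8 on the Control arrays, which is low on this array. The background step moved its size: the difference was 0.87 with an offset of 50, 0.90 with no background correction and 1.05 in the deposited log2 values. It was 1.22 without the 2 arrays that stood apart.

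Mmp2, the other gelatinase, measured 5.08, 5.14 and 5.76 on the cKO arrays and 5.20, 4.97 and 4.50 on the Control arrays. It was detected on 2 cKO arrays and 1 Control array, the groups overlapped, and the difference was 0.43 ± 0.32 (SE). It was 0.36 without the 2 arrays that stood apart, and all alternatives ran from 0.21 to 0.58.

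Mmp11, also named stromelysin-3, measured 7.74, 8.08 and 7.98 on the cKO arrays and 8.22, 8.84 and 8.20 on the Control arrays. All cKO arrays were lower, by a narrow margin between cKO replicate 2 and the 2 lower Control arrays. The difference was -0.48 ± 0.29 (SE), and it was -0.50 without the 2 arrays that stood apart.

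Mmp14, a membrane-bound metalloproteinase that cuts the Mmp2 proform, measured 11.73, 12.14 and 11.61 on the cKO arrays and 11.64, 12.10 and 12.32 on the Control arrays by probe ILMN_1240726. The groups overlapped, with a difference of -0.19 ± 0.30 (SE), or 0.0034 without the 2 arrays that stood apart. Its other probe, ILMN_1225091, was detected on 2 cKO arrays and 1 Control array and differed by 0.25 ± 0.28 (SE), or 0.23 without those 2 arrays.

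**Figure D3:**
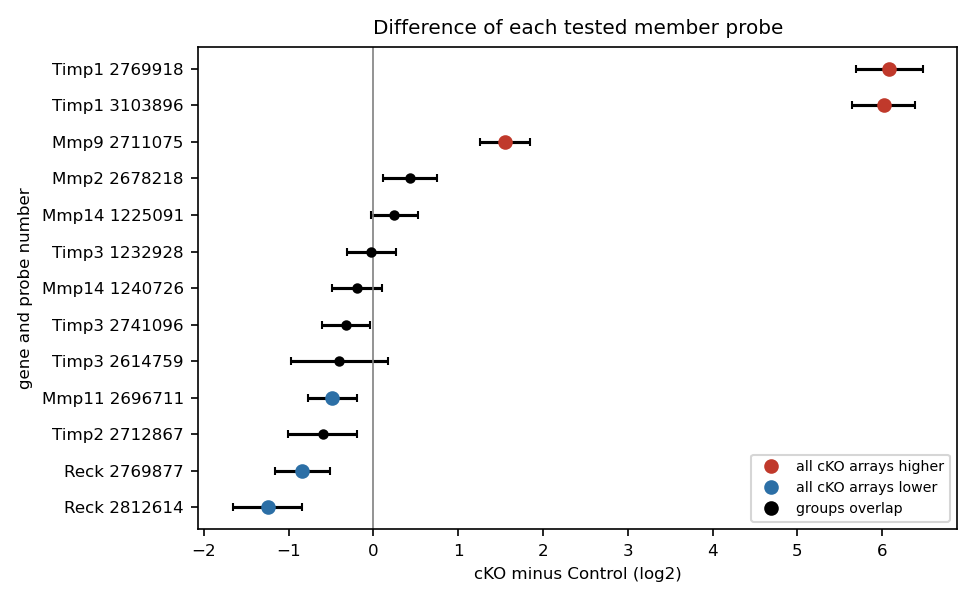
Difference between the cKO and Control means in log2 units for the 13 tested member probes, with standard errors from limma; red points have all cKO arrays above the Control arrays, blue points all below, and black points overlap. The Timp1 probes lie at 6.02 and 6.09, and the next is Mmp9 at 1.55.

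The members differed unevenly, and cKO replicate 1 was at the edge for many of their probes, for some by little. Of the cKO arrays it was the highest for Timp1, Mmp9 and the dimmest Timp3 probe. It was the lowest for Timp2, Reck, Mmp2, Mmp11, the other Timp3 probes and the dim Mmp14 probe. Taking the brightest tested probe of each gene, 3 of the 8 tested members had a positive difference and 5 a negative one, with a median of -0.26. Over all 12277 tested genes, 61.3% were positive and the median was 0.12.

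The same description was made for the other genes of the pathway, in 6 lists. Over all 21805 tested probes, 1393 had an unadjusted p under 0.05 in limma. A separate fit with the brightest probe per gene had 1034 of 12277. Among the other matrix metalloproteinases, 17 of 19 were on the array and 6 were tested. Of these, 5 had a positive difference and 0 passed limma's threshold (1 had an unadjusted p under 0.05), with a median of 0.19. Mmp23 measured 9.34, 7.29 and 6.75 on the cKO arrays and 5.64, 6.36 and 5.03 on the Control arrays, without overlap, and differed by 2.12 ± 0.69 (SE; adjusted p 0.612, limma), or by 1.03 without the 2 arrays that stood apart. The brightest Mmp24 probe differed by -0.28 ± 0.26 (SE), whereas its other tested probes differed by 1.73 ± 0.45 and 1.42 ± 0.51, so its probes disagree. Mmp17 differed by 0.39 ± 0.32 and Mmp19 by 0.26 ± 0.32 (SE), or by 0.04 and -0.15 without those 2 arrays.

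Of the ADAM and ADAMTS proteases, relatives that shed membrane proteins or cut proteoglycans, 18 of 30 were tested, 14 had a positive difference and 0 passed the threshold in limma (5 had an unadjusted p under 0.05), with a median of 0.26. Adam23, whose protein lacks protease activity, measured 9.18, 7.60 and 7.22 on the cKO arrays and 4.85, 5.23 and 4.84 on the Control arrays. The groups were far apart, and the difference was 3.02 ± 0.51 (SE; adjusted p 0.111, limma). Adamts9, a proteoglycan-cutting enzyme, measured 10.84, 10.53 and 10.06 against 8.51, 8.90 and 8.26, a difference of 1.92 ± 0.32 (SE; adjusted p 0.106, limma). Adamts4 and Adamts19 lacked a signal well above background in the Control group, so only a bound is given. With each Control array taken at its dimmest detected probe, or at the probe's own value where that was higher, Adamts4 was at least 2.23-fold and Adamts19 at least 1.68-fold higher in cKO. Neither passed the threshold.

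Among 21 activators and cell-surface partners of metalloproteinases and TIMPs, 14 were tested and 9 had a positive difference, against 61.3% of all 12277 tested genes. All cKO arrays lay above the Control arrays for 3, against 9.56% of all genes, and 3 had an unadjusted p under 0.05 in limma. The threshold was passed by 1, against 0.195% of all genes. That gene was Cd63, a tetraspanin known as a surface receptor for Timp1. It measured 12.07, 11.03 and 11.40 on the cKO arrays and 8.97, 8.45 and 8.28 on the Control arrays. Cd63 rose by 2.93 ± 0.36 (SE), or 7.64-fold (adjusted p 0.0466, limma), and its 2 other tested probes differed by 2.34 ± 0.34 and 1.45 ± 0.61 without passing. The call was narrow: Cd63 passed in 3 of the 15 alternatives, with adjusted p-values between 0.0190 and 0.286 over all of them, and leaving out any 1 of the 6 arrays lost it. Without both cKO replicate 1 and Control replicate 3 it differed by 2.51 and did not pass. Cav1, the caveolin, differed by 1.39 ± 0.36, the proprotein convertase Pcsk6 by -1.02 ± 0.43 and the cathepsin Ctsb by 0.52 ± 0.28 (SE), none past the threshold.

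Of 12 other protease inhibitors and matricellular regulators, 6 were tested and 4 were positive. Their median difference was 0.21, and 0 passed in limma or had an unadjusted p under 0.05. Pcolce, which aids the trimming of procollagen, differed by 0.88 ± 0.40, Pcolce2 by 0.30 ± 0.37 and the cysteine protease inhibitor Cst3 by -0.35 ± 0.33 (SE). Without the 2 arrays that stood apart these were 0.53, -0.13 and -0.04. Sparc, a collagen-binding matricellular protein, differed by -0.92 ± 0.61 (SE), with cKO replicate 1 at 11.53 below the rest, and by -0.06 without those 2 arrays. Its other tested probes differed by -0.38 ± 0.25, with all cKO arrays below the Control arrays, and by -2.74 ± 2.20 (SE), with overlap.

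The matrix proteins that these enzymes cut had the highest list median, 0.63: of 28, 21 were tested and 18 had a positive difference, 8 with all cKO arrays above the Control arrays. Over all 12277 tested genes, 9.56% separated in that direction and 61.3% were positive. None of the list passed the threshold in limma, and 7 had an unadjusted p under 0.05, against 1393 of all 21805 tested probes. Col4a1, a chain of type IV collagen in basement membranes, measured 10.29, 10.09 and 10.20 on the cKO arrays and 8.76, 9.13 and 8.15 on the Control arrays. It separated the groups, with a difference of 1.51 ± 0.31 (SE; adjusted p 0.208, limma). Other type IV chains went both ways: Col4a5 differed by 1.88 ± 0.46 and Col4a2 by 2.12 ± 0.56, but Col4a3 by -1.02 ± 0.55 and Col4a4 by -0.26 ± 0.37 (SE), the last 2 named after their values were seen. Without the 2 arrays that stood apart they were 1.21, 1.29, -0.19 and -0.67 in that order. The small proteoglycan Bgn differed by 1.48 ± 0.39 (SE).

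Of 34 signalling and transcription factors known to act on Timp1, 24 were tested, 16 (66.7%) had a positive difference, against 61.3% of all genes, and 9 had all cKO arrays above the Control arrays, against 9.56% of all genes. The median was 0.20, and 0 passed the threshold in limma. In that fit 8 had an unadjusted p under 0.05, against 1393 of all 21805 tested probes. Atf3, a stress-induced factor of the AP-1 group, measured 9.69, 8.65 and 8.93 on the cKO arrays and 6.59, 6.17 and 5.42 on the Control arrays. It came closest, at 3.03 ± 0.41 (SE; adjusted p 0.0619, limma), and passed under 4 of the 15 alternatives. Osmr, the receptor for oncostatin M, differed by 1.87 ± 0.34 (adjusted p 0.143), Cebpb by 1.87 ± 0.41 (0.254) and the AP-1 member Fosl2 by 1.15 ± 0.27 (0.298) (SE, limma). Without the 2 arrays that stood apart Cebpb differed by 1.23.

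**Figure D4:**
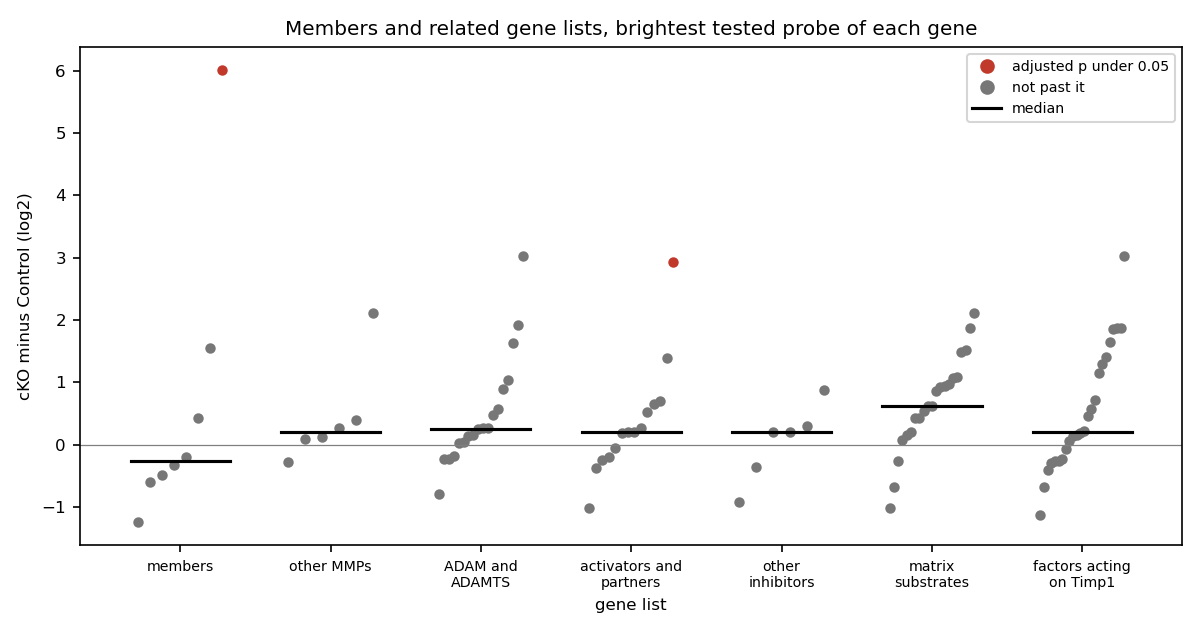
Difference between the cKO and Control means in log2 units for the members and 6 related lists; each point is a gene, at its brightest tested probe, ordered by value within its list, bars are medians and red points passed an adjusted p of 0.05. Timp1 at 6.02 and Cd63 at 2.93 are the red points, and the matrix substrates have the highest median, 0.63.

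The genes most like Timp1 were found by the Euclidean distance over the 6 arrays between log2 values set relative to each gene's Control mean, among 12277 genes. This measure favours genes with large rises, since Timp1 had the largest. The genes named here were thus chosen on these same arrays for rising in cKO. Where they stood against the threshold, in the main fit or an alternative, follows from that choice and supports nothing. The nearest was Serpina3n, a secreted serine protease inhibitor, at a distance of 1.69. Serpina3n measured 12.43, 10.52 and 10.53 on the cKO arrays and 6.04, 6.37 and 5.63 on the Control arrays. It rose by 5.14 ± 0.55 (SE), or 35.4-fold (adjusted p 0.0335, limma). The next were the surface protein Cd83 at 2.95 and the death receptor Fas at 3.05, neither well above background on any Control array, which rose at least 15.1-fold and 15.4-fold. Cd83 and Fas met the filter on detection through the cKO arrays only. The calls of Serpina3n, Cd83 and Fas were lost without any 1 of the Control arrays, without cKO replicate 2, with no filter on detection and in the paired fit with the replicate block. They were kept without both cKO replicate 1 and Control replicate 3, where the differences were 4.32, 4.10 and 3.84. Of the 15 alternatives, Serpina3n passed in 7 and Cd83 and Fas in 8 each. Robo4, Phlda1, Rab32, Lbh and Trim2 followed at distances of 4.09 to 4.46, with differences of 3.51 to 3.69 that did not pass the threshold. Probes of 3 of these genes disagree: the other tested probes of Robo4 differed by 0.23 and 0.31, those of Trim2 by 0.21 and 1.78, and that of Lbh by 1.33. The array of cKO replicate 1 was the highest for each of these genes, as for Timp1, and no correlation is given because the arrays form separate groups.

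**Figure D5:**
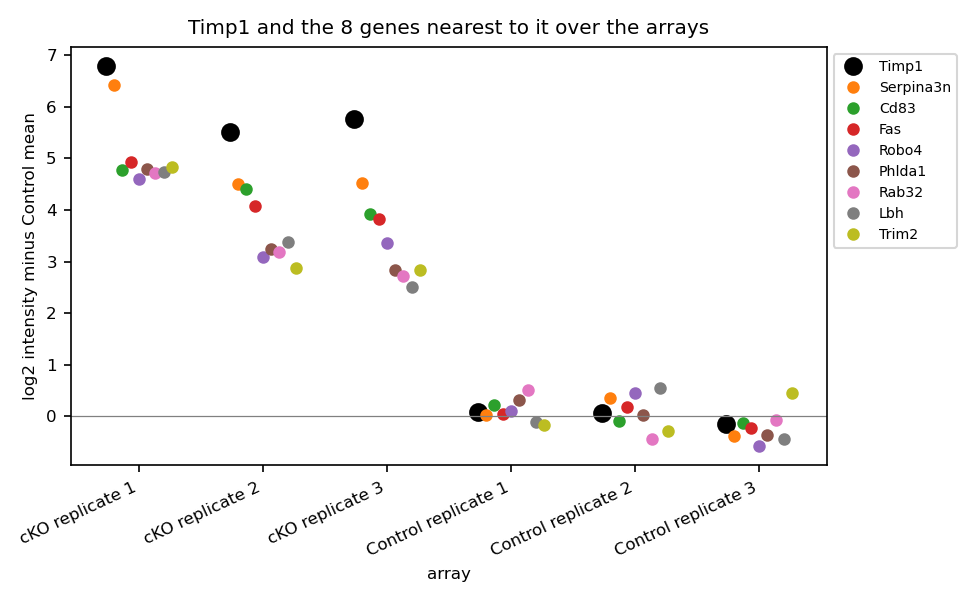
Log2 intensity relative to the mean of the Control arrays, per array, for Timp1 and the 8 genes nearest to it; each point is a gene on an array. All 9 genes are above 2 on the cKO arrays and within 1 of 0 on the Control arrays, and cKO replicate 1 is the highest for each.

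Timp1, Timp3 and Timp4 each lie within a synapsin gene in the GRCm38.p6 gene table, and Cep295nl overlaps Timp2; these neighbours were looked up after the values had been seen. Syn1, which holds Timp1, had a probe at 5.73 to 7.26 on the cKO arrays and 4.41 to 4.81 on the Control arrays. It was not well above background on any Control array and was at least 2.69-fold higher without passing the threshold. The other Syn1 probe, detected on 2 arrays, was not tested. Of the nearest genes, Araf had 5 probes and Cfp 1, and no tested probe passed. The brightest Araf probe differed by -0.12 ± 0.33, and the other tested ones by -0.22 ± 0.27, -0.24 ± 0.28 and -1.31 ± 0.71 (SE). The remaining Araf probe was detected on no array and was not tested. Cfp differed by 0.21 ± 0.52 (SE), and the nearest genes Usp11 and Elk1 were not tested. The tested Syn3 probes differed by -0.11 and 0.02, the Syn2 probe by 0.18 ± 0.30 and Cep295nl by 0.86 ± 0.41 (SE).

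Markers of other testis cells were also mostly higher on the cKO arrays, none past the threshold in limma. Of all 12277 tested genes, 61.3% were positive, with a median of 0.12. For endothelial cells, 8 of 8 tested markers were positive (median difference 1.15), and Kdr was detected on no array. The summed normalised intensity of the markers on the array was 1631 to 4263 in cKO and 465 to 731 in Control. Much of the cKO sums was Robo4. It measured 11.459, 9.9568 and 10.222 on the cKO arrays and 6.9734, 7.3233 and 6.2854 on the Control arrays (log2). The other tested Robo4 probes differed by 0.23 and 0.31. For peritubular myoid cells 6 of 7 were positive, with a median of 0.77 and sums of 11469 to 21547 against 6014 to 11003. Cnn1 and Tagln were detected on no array. For Leydig cells 4 of 5 were positive, with a median of 1.26 and overlapping sums of 2367 to 8659 against 1239 to 3054. Hsd3b1 was not detected.

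Macrophage and leukocyte markers had 7 of 8 positive differences, with a median of 0.99. The summed intensity of the markers on the array was lower in cKO, at 3913 to 4771 against 5143 to 5944. Mrc1 was the largest part of that sum on every array and was the tested marker with the negative difference. It measured 10.675, 11.727 and 11.65 on the cKO arrays and 12.032, 12.321 and 12.194 on the Control arrays (log2). Ptprc, the common leukocyte antigen, was detected on no array, nor were Itgam and Fcgr1. Spermatogonial markers were positive in 9 of 11, with a median of 0.67 and sums of 6201 to 7372 against 5141 to 6060. Zbtb16 was not detected. Spermatocyte markers were positive in 8 of 8, with a median of 0.48 and overlapping sums of 67815 to 79111 against 53359 to 72410. Dmc1 and Sycp3 were not detected. Spermatid markers were positive in 7 of 10, with a median of 0.42 and overlapping sums of 98795 to 129267 against 89938 to 118823. The germ cell markers Ldhc and Prm1 had the highest mean intensity of all the markers. Ldhc lay between 14.658 and 14.902 and Prm1 between 14.72 and 14.902 on the 6 arrays (log2). The part of these cells in the values of Timp1 and the other members was not tested.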

How the data were processed

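Transcripts were measured on 6 Illumina bead arrays, 3 cKO and 3 Control, grouped by the genotype in the labels. Per the file headers, each deposited array table holds a linear mean intensity per probe, the spread between its beads, a bead count and a detection score, a fraction from 0 to 1 that rises with signal. BeadStudio appears in the submitters' processing notes with no version. The authors' series table has log2 values. A comparison with the array tables gave them as log2 intensity, less the 75th percentile of that array, with every probe centred on its own median; which tool did this is not stated in the sources used. Column medians were 0.244, -0.0219 and -0.194 (cKO replicates 1 to 3) and 0.0399, 0.0977 and -0.301 (Control replicates 1 to 3). That settled its scale, centring and direction.

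Probes were joined to the platform annotation through that formula: all 45281 entries matched a probe of their own within 0.00069, and the next nearest was at least 0.00424 away. By the annotation 34885 probes have 1 symbol, 18 have several and 10378 have none. Of these, 34807 had an Entrez ID in the GRCm38.p6 gene table, which changed 0 symbols.

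Intensities were background-corrected, with the background taken from the detection values, and quantile-normalised with neqc (offset 16) in limma 3.58.1 (R 4.3.3). A detection score over 0.95 was taken as detected, and a probe had to pass it on 3 or more of the 6 arrays to be tested with lmFit and eBayes, with group as the only term, two-sided, and Benjamini-Hochberg adjustment under 0.05. The procedure was tested on simulated data. Precision is limited by 3 arrays a group. Lists use the brightest tested probe of each gene.

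The members, lists and tests were chosen with earlier results of these data known. Named genes are all member probes, up to 4 genes per list with the smallest p plus any past the threshold, and the 8 genes nearest to Timp1. Same-numbered arrays deviated together (correlations 0.262, 0.410 and 0.473, all over 0.1), with the labels silent on what a number stands for. The main fit leaves this possible pairing out, and all calls come from it unless an alternative is named. The replicate block enters as an alternative, in which 0 probes passed. Alternatives covered background, scaling, the deposited log2 values, the filter, left-out arrays (normalised with all 6) and the brightest probe per gene. Promoter windows come from RefSeq, GRCm38.p6. Protein sequences were not used here.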

Additional observations from a re-analysis of the deposited data

How the results depend on the processing

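The Timp1 difference kept its direction in all 15 alternatives, and no alternative called a lower probe. Probes called, 31 at first, numbered 12 with an offset of 50, 12 with no background correction, 1 with no filter on detection (45281 tested, 2303 at an unadjusted p under 0.05), 56 with the brightest probe per gene, 6 without cKO replicate 1 and Control replicate 3, and 0 to 15 when 1 array was left out. They were 8, 2 and 15 without cKO replicate 1, 2 or 3, and 0 without any 1 of the Control arrays (2622, 1058 and 874 at an unadjusted p under 0.05, limma). With the replicate block 0 probes passed (3257 at an unadjusted p under 0.05, limma), and Timp1 differed by 6.02 ± 0.31 (SE) in this paired fit. Without the filter it differed by 6.02 as well, past the threshold in neither, and with 1 array left out by 5.64 to 6.27. The activator and partner list, with Cd63 as its 1 call, had 0 with an offset of 50, no background correction, median scaling, no filter, the replicate block, the 2 arrays that stood apart left out, or any 1 array left out (0 to 0). The list of factors acting on Timp1 went from 0 to 1, Atf3, with detection on all 6 arrays, median scaling, the brightest probe per gene or the deposited log2 values. The counts of the other lists were 0 in every alternative. Of the members, Mmp9 and both Timp1 probes moved by more than the spread between replicates. At the lowest, Mmp9 was at 0.87, the brighter Timp1 probe at 5.38 and the other Timp1 probe at 5.34. Low signal limits Mmp2, Timp4, Mmp9 and the dim Timp3 and Mmp14 probes. It also limits the Control level of Timp1, and with it the size of the Timp1 fold. All calls are limited by 3 arrays a group.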
